A study of Mus musculus with 16 samples.

Results

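The 10 genes described here encode the enzymes that write and remove DNA methylation in the mouse and the proteins that guide or finish these reactions: Dnmt1, Dnmt3a, Dnmt3b, Dnmt3l, Tet1, Tet2, Tet3, Uhrf1, Tdg and Mbd4. They were chosen by name, and each symbol matched 1 Ensembl gene among the 38293 counted. Their RNA was measured in 3 libraries of P6D4 and 3 of 70Z/3. P6D4 is a line from the SCID.adh murine thymic lymphoma, labelled DN3, an early thymocyte stage. 70Z/3 is a lymphoblast line labelled Pre-B. The labels give no treatment, age or further genotype for either line. Each stage is represented by 1 line, so the stage and other differences between the lines cannot be told apart. The labels do not say that the replicates came from separate cultures, so a p-value here speaks only to the spread among these libraries, possibly a technical one.

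DNA methylation in mammals sits mainly on the cytosine of CpG, a C followed by a G. DNMT3A and DNMT3B place it on unmethylated DNA, aided in germ cells by DNMT3L, which has no catalytic activity of its own. DNMT1 copies it to the new strand after replication and is brought there by UHRF1. TET enzymes oxidise methylcytosine, and TDG cuts out the later oxidation products so that repair restores plain cytosine. MBD4 binds methylated CpG and removes thymine left when methylcytosine loses its amino group. In blood cells, DNMT3A and TET2 are known as tumour suppressors, and TET enzymes act in B and T cell development.

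Depth in gene counts was 54815145, 52076755 and 48255176 in the P6D4 libraries and 47568819, 48885150 and 45481949 in the 70Z/3 libraries. Values are given as CPM, the counts-per-million scale, after TMM scaling of the libraries. CPM are not divided by transcript length, so levels of different genes are not compared. The listed markers went with the labels: 10 of 10 thymocyte markers were higher and 8 of 8 pre-B markers lower in P6D4. Summed pre-B markers were at 0.759 to 1.32 CPM in P6D4 and 1867 to 1919 CPM in 70Z/3. Summed thymocyte markers were at 4310.1 to 4416 CPM in P6D4 and 76.3 to 79.9 CPM in 70Z/3. Most of the sum in 70Z/3 came from Notch1 and Tcf7, which averaged 41.1 and 32.6 CPM there. The 6 myeloid markers summed to 30.9 to 37.7 CPM in P6D4 and 23.3 to 24.9 CPM in 70Z/3, but moved both ways. Itgam (log2 fold change 2.04) and Cd68 (0.79) were higher and Lyz2 (-2.64) and Csf1r (-7.54) lower in P6D4, Mpo had 8 counts in P6D4 and 1 in 70Z/3, and Cebpa had 0. Erythroid markers summed to 0.577 to 0.636 CPM in P6D4 and 0.866 to 0.953 CPM in 70Z/3. Stromal markers summed to 57.0 to 65.2 CPM in P6D4 and 80.5 to 86.6 CPM in 70Z/3, nearly all of it from Pecam1, which averaged 60.8 CPM in P6D4 and 82.8 CPM in 70Z/3. Col1a1, Col1a2 and Pdgfra had 0 counts in P6D4 and 12, 1 and 2 in 70Z/3, and Dcn had 0 in both. The part of these markers in the differences between the lines was not tested.

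The lines differed most at 3 of these genes. Dnmt3b and Tet1 were well expressed in P6D4 and nearly without counts in 70Z/3, and Tet2 showed the opposite. Dnmt3l was near 0 in both. The starts of these 4 genes are printed here because at least 1 line had nearly no RNA from each. Each window runs from 250 bases before to 50 bases after a RefSeq start (GRCm38.p6), in the direction of the gene, with CpG sites in capitals. The RefSeq starts were not measured in these lines.
Dnmt3b, chr2:153649199-153649498, plus strand: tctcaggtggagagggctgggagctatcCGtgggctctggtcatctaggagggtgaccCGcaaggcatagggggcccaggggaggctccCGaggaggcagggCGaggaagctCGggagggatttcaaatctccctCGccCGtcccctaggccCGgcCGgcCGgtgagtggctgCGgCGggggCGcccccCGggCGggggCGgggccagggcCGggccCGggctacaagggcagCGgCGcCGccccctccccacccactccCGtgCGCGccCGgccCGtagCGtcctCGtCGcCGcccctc
Tet1, chr10:62887275-62887574, minus strand: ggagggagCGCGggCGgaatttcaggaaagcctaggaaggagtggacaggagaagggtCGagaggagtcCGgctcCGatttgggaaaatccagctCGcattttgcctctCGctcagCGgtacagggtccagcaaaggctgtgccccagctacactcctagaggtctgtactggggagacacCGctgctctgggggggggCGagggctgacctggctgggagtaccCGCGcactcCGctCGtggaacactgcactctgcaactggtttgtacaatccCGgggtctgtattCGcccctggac
Tet2, chr3:133544341-133544640, minus strand: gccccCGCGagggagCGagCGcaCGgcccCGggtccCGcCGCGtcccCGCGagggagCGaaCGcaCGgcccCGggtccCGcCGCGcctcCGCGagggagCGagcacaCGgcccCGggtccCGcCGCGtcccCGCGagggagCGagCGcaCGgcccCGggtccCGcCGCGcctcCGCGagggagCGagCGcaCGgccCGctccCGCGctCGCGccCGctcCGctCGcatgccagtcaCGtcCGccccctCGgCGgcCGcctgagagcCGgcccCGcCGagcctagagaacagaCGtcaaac
Dnmt3l, chr10:78042037-78042336, plus strand, the first of 3 starts listed: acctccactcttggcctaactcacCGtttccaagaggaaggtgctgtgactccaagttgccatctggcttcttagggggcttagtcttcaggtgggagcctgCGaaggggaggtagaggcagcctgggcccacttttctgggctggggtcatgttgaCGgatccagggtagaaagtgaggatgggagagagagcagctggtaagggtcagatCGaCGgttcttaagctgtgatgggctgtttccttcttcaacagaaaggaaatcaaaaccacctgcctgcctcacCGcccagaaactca
These windows held 30 CpG sites at Dnmt3b, 17 at Tet1, 57 at Tet2 and 6 at Dnmt3l.

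Dnmt3b, a methyltransferase for unmethylated DNA, lies on chromosome 2 (GRCm38.p6, 153649411 to 153687730). It had 53.4, 51.1 and 49.8 CPM in P6D4, against 0.0426, 0.0414 and 0.0888 CPM in 70Z/3. In counts this was 8080 in the P6D4 libraries together and 8 in the 70Z/3 libraries together. Every P6D4 library was far above every 70Z/3 library. The log2 fold change was 9.75 ± 0.12 (SE; edgeR quasi-likelihood test, adjusted p = 9.53e-17). Since the low line rests on so few counts, the ratio of summed counts per library size is also given, with an interval for counting error only: 903, with a 95% interval of 458 to 2092. In bulk RNA, fewer cells with a transcript and less RNA per cell cannot be told apart. Counts per gene do not separate the catalytic and inactive splice forms of Dnmt3b.

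Dnmt3a, its sister enzyme on chromosome 12 (3801559 to 3914443), was present in both lines and higher in P6D4. It had 231, 232 and 239.6 CPM in P6D4 and 138, 137 and 141 CPM in 70Z/3. The groups did not overlap, and the log2 fold change was 0.76 with an SE of 0.03 (adjusted p = 4.42e-11, edgeR). It did not pass the test against a 2-fold difference (glmTreat in edgeR, adjusted p = 1). Within a library, the log2 ratio of Dnmt3a to Dnmt3b counts averaged 2.19 ± 0.08 in P6D4 and 11.33 ± 0.60 in 70Z/3 (SD, n = 3). Such a ratio of counts is not a ratio of levels, since transcript lengths were not divided out. The lengths drop out of its difference between the lines, -9.14, only if both lines use the same transcripts, which was not measured.

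Dnmt3l, the cofactor without activity, had 2, 3 and 0 counts in P6D4 and 0 in each 70Z/3 library. These counts were too few to test, and Dnmt3l overlaps Aire, which had 6 counts in P6D4 and 19 in 70Z/3. All libraries were at or below 3 counts, which corresponds to 0.0574 CPM in P6D4 and 0.0642 CPM in 70Z/3, so no fold is given. Dnmt3c, the rodent copy of Dnmt3b that works in male germ cells, had 0 counts in all 6 libraries.

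Dnmt1, the maintenance enzyme on chromosome 9 (20907206 to 20959888), went the other way from Dnmt3a and Dnmt3b. It had 787, 767 and 771 CPM in P6D4 and 1518, 1531 and 1513 CPM in 70Z/3. All P6D4 libraries lay below all 70Z/3 libraries, at a log2 fold change of -0.97 with an SE of 0.03 (adjusted p = 1.22e-12, edgeR). Uhrf1, which recognises DNA methylated on 1 strand and recruits DNMT1, had 491, 479.9 and 466 CPM in P6D4 and 397, 421 and 413 CPM in 70Z/3. It was thus slightly higher in P6D4, by 0.22 ± 0.03 on the log2 scale (SE; edgeR adjusted p = 3.73e-05). Neither gene passed the test against a 2-fold difference (glmTreat adjusted p = 1 for each).

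The log2 ratio of Uhrf1 to Dnmt1 counts was -0.68, -0.68 and -0.73 in P6D4 and -1.93, -1.86 and -1.87 in 70Z/3. The lines did not overlap, and the difference was 1.20. An exact two-sided permutation test of 3 against 3 libraries gave p = 0.1, the smallest it can give, for this ratio and for the other 4 ratios computed (adjusted p = 0.1 over the 5). Such a ratio does not depend on the scaling of the libraries.

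**Figure D1:**
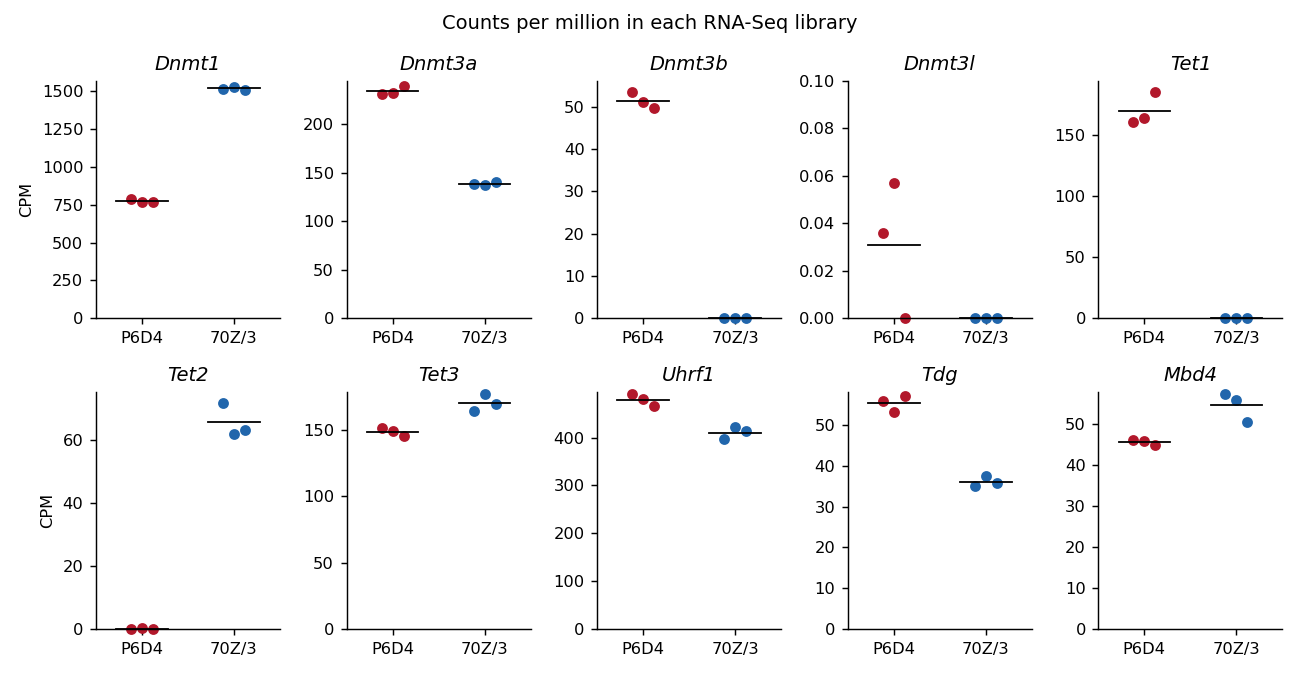
Each panel plots CPM (linear axis from 0, its own scale per gene) in the 3 P6D4 libraries (red, left) and the 3 70Z/3 libraries (blue, right), with a black line at the mean. Dnmt3b and Tet1 have points well above 0 only in P6D4 and Tet2 only in 70Z/3, while the axis for Dnmt3l ends at 0.1 CPM.

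Among the TET enzymes, Tet1 on chromosome 10 (62804570 to 62887469) was the one with RNA in P6D4 and nearly none in 70Z/3. It had 161, 164 and 185 CPM in P6D4, against 0.192, 0.332 and 0.155 CPM in 70Z/3. Of the P6D4 libraries replicate 3 was the highest, and no 70Z/3 library exceeded 16 counts. The log2 fold change was 9.52 with an SE of 0.12 (adjusted p = 7.39e-17, edgeR), and the ratio of summed counts was 742 with a 95% counting interval of 526 to 1086.

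Tet2, on chromosome 3 (133463677 to 133545136), had the reverse pattern. It had 0.0721, 0.171 and 0.0616 CPM in P6D4, against 71.9, 62.0 and 63.2 CPM in 70Z/3. The P6D4 libraries held 4, 9 and 3 counts, and the lines were far apart. Its log2 fold change was -9.30 with an SE of 0.14 (adjusted p = 7.05e-16, edgeR). The ratio of summed counts was 644 for 70Z/3 over P6D4 (397 to 1128 as the 95% counting interval). The log2 ratio of Tet1 to Tet2 counts averaged 10.86 ± 0.85 in P6D4 and -8.26 ± 0.62 in 70Z/3 (SD, n = 3). The ratios of the lines lay on opposite sides of 0 and differed by 19.12.

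Tet3, on chromosome 6 (83362373 to 83457208), was expressed in both lines, with a small difference between them. It had 151, 149 and 145 CPM in P6D4 and 164, 177 and 169 CPM in 70Z/3. All P6D4 libraries were below all 70Z/3 libraries, with a difference of -0.20 on the log2 scale (SE 0.04; adjusted p = 0.000197 by edgeR). The log2 ratio of Tet2 to Tet3 counts averaged -10.67 ± 0.78 in P6D4 and -1.37 ± 0.17 in 70Z/3 (SD, n = 3). Neither line therefore lacked TET RNA: P6D4 had Tet1 and Tet3, and 70Z/3 had Tet2 and Tet3.

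Both glycosylases that act on modified or mismatched bases were present in both lines. Tdg, which removes oxidised methylcytosine, had 56.0, 53.3 and 57.1 CPM in P6D4 and 35.0, 37.5 and 35.7 CPM in 70Z/3. It was higher in P6D4 without overlap, by 0.62 ± 0.04 on the log2 scale (SE; edgeR adjusted p = 1.32e-08). Tdg has a transcribed pseudogene on the same chromosome 10, Gm9855 (Tdg-ps2), and reads can be split or lost between such copies, so the value is uncertain. Gm9855 had 86.1, 84.4 and 86.4 CPM in P6D4 and 20.3, 20.5 and 21.2 CPM in 70Z/3. Tdg held 39.3% of the counts of the pair in P6D4 and 63.6% in 70Z/3. With both summed, a step chosen after seeing the data, the log2 fold change was 1.31 ± 0.04 and beyond 2-fold (SE; glmTreat adjusted p = 2.91e-07), whereas Tdg alone was not (adjusted p = 1). Tdg also overlaps Glt8d2, which had 271 counts in P6D4 and 23 in 70Z/3.

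Mbd4 had 46.1, 45.9 and 44.8 CPM in P6D4 and 57.2, 55.7 and 50.5 CPM in 70Z/3. It was lower in P6D4, with a difference of -0.26 on the log2 scale (SE 0.05; adjusted p = 0.000212 by edgeR). Mbd4 overlaps Ift122, which went the other way, with 9933 counts in P6D4 and 3230 in 70Z/3. The sources used here do not state which strand setting the counting used. Reads at the overlap may thus be left out or counted for the wrong gene. The log2 ratio of Tdg to Mbd4 counts averaged 0.28 ± 0.07 in P6D4 and -0.59 ± 0.11 in 70Z/3 (SD, n = 3).

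Of the 10 genes, 9 passed the filter on low counts, and all 9 were called by edgeR: 5 higher and 4 lower in P6D4. The libraries of the lines did not overlap for any of the 9. This has to be read against the whole table, where 86.5% of the 13750 genes tested were called, 43.3% as higher and 43.2% as lower, and where the libraries did not overlap for 87.4%. Beyond 2-fold, 3 of the 9 were called, 2 of them higher and 1 lower, against 35.2% of all genes, 16.6% higher and 18.6% lower. Their median log2 fold change was 0.22, beside 0.01 over all genes tested. These shares were near those of all genes. The absolute differences of Dnmt3b, Tet1 and Tet2 were exceeded by 5.61%, 6.10% and 6.55% of genes tested, and those of Tet3, Uhrf1 and Mbd4 by 82.0%, 79.5% and 76.6%. The genes of chromosome 10, with Tet1 and Tdg, had a median log2 fold change of 0.47 over 582 tested, and those of chromosome 6, with Tet3 and Mbd4, of -0.55 over 562. The small differences of Tdg, Tet3 and Mbd4 had the sign of these medians, whose part in them was not tested.

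The genes whose pattern over the 6 libraries was nearest to Dnmt3b, by root mean square difference of centred log2 CPM (prior count 2), were Padi3, Tshz3 and Anks6, at 0.067, 0.070 and 0.096. Each had 1 count in 70Z/3, so likeness at this end rests on the prior count. Those nearest to Tet2 were Rap2b, Rasal2 and Fnbp1l, at 0.164, 0.168 and 0.176. Rap2b and Rasal2 each had 1 count in P6D4, so their likeness also rests on the prior count. Fnbp1l, for example, averaged 0.0705 ± 0.0397 CPM in P6D4, with 49.7 ± 2.76 CPM for 70Z/3 (SD, n = 3).

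CpG sites were counted in all 17 promoter windows that RefSeq gives for the 10 genes, beside the 32851 windows of 300 bases in the whole table. The median over all windows was 7 sites, with quartiles of 3 and 20. The Tet2 window held more sites than 99.8% of all windows, at an observed over expected CpG ratio of 1.17. Dnmt3a had 46 and 47 sites at its overlapping first starts and 18 at the internal one. The Dnmt3b window exceeded 88.3% of all windows and the Tet1 window 68.6%. Dnmt3l, with hardly any RNA, had 6, 4 and 3 sites at its 3 starts. Dnmt1 ranged over 2, 12 and 33 sites between its starts, and Uhrf1 over 12 and 33. Tet3, Tdg and Mbd4 held 22, 26 and 25. Methylation of these sites was not measured here.

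**Figure D2:**
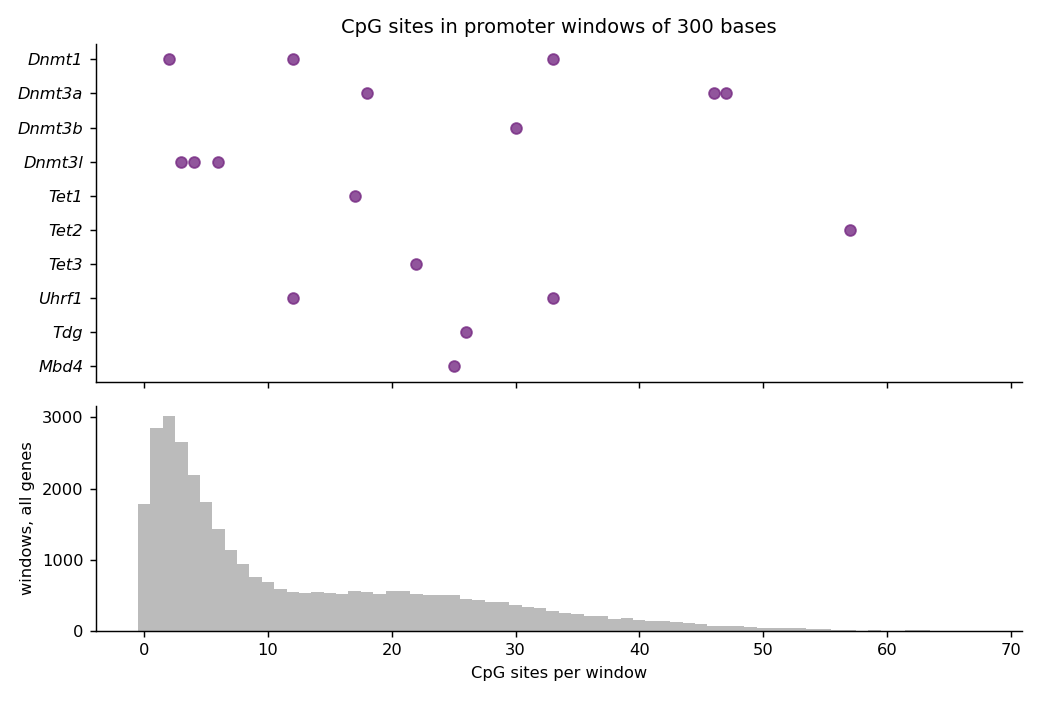
The upper panel marks the number of CpG sites in each promoter window of the 10 genes, 1 point per RefSeq start, and the lower panel shows the number of windows of all genes by CpG sites. Tet2, at 57 sites, lies far to the right, and the 3 windows of Dnmt3l, at 3 to 6 sites, lie below the median of 7 over all windows.

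Among letters searched on both strands, CACGTG, the E-box that Myc with Max binds, was found at 1 start each of Dnmt3a, Dnmt3l and Tdg, and 7.15% of all windows hold it. None of the windows of Dnmt3b, Tet1 and Tet2 held it. The GC box GGGCGG was in all 3 of those windows and in 35.7% of all windows, and TATAAA was in none of the 17 windows of the 10 genes and in 13.6% of all. These matches describe the letters only.

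The series also asked where Miz1, a zinc finger transcription factor that works with Myc, sits in these lines. No summit of the authors' Miz1 peaks lay within 1 kb of a start of any of the 10 genes in either line. This is also the common case, since such a summit was found at 0.858% of 17492 protein-coding genes in P6D4 and at 2.8% in 70Z/3. The lists held 21629 peaks in P6D4 and 10462 in 70Z/3, from 2067731 tags kept in P6D4 (3.4% of all) and 4484034 in 70Z/3 (14.5%), and 1 ChIP library per line, from 1 lysate, gives no replicate check.

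The nearest summits were distant for most of the genes. Only Dnmt3a had a peak inside the gene, 40045 bases from a start in P6D4 (fold over local background 6.92) and at another place, 16577 bases from a start, in 70Z/3 (fold 5.46). For Dnmt3l the nearest summits lay 17541 bases away in P6D4 and 20728 bases away in 70Z/3. The nearest peaks to Tet2 lay at 91956 bases in P6D4 (fold 6.36) and 98110 bases in 70Z/3 (fold 13.34). Uhrf1 had summits at nearly the same place in both lists, 103293 and 103292 bases away, with folds of 6.15 in P6D4 and 11.52 in 70Z/3. Dnmt3b, at 234575 bases in P6D4 and 155249 in 70Z/3, and Tet1, at 152996 and 217882, had none closer.

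For the other genes the distance was 219451 bases in P6D4 and 630401 in 70Z/3 for Dnmt1, and 224403 and 815512 for Tet3. Tdg was at 457265 bases in P6D4 and 501492 in 70Z/3, and Mbd4 at 67829 and 60578. The median over all protein-coding genes was 107 kb in P6D4 and 110.1 kb in 70Z/3, so the 10 genes spread over both sides of it. The folds are the authors' values within each list and do not compare the lines.

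**Figure D3:**
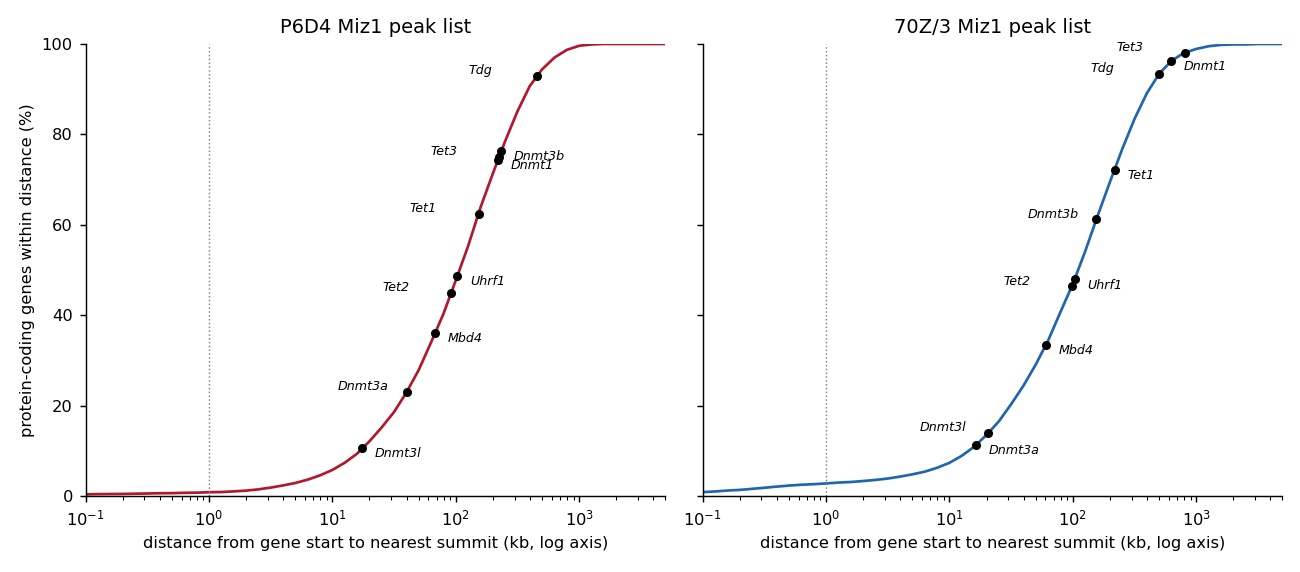
Each curve gives the percentage of protein-coding genes (vertical axis) with a Miz1 summit within a given distance of a start (horizontal log axis, kb), for the P6D4 list on the left and the 70Z/3 list on the right. The 10 genes are marked on the curve as black points, all to the right of the dotted line at 1 kb.

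Genes that work with these enzymes were described from lists. Those said to rise or fall, or named as higher or lower, had an adjusted p under 0.05 in edgeR over all genes, and their differences are log2 fold changes. The counts of each list are to be read beside the 86.5% of all genes tested that were called, 43.3% as higher and 43.2% as lower. Of 11 partners of maintenance methylation, 3 rose in P6D4, 2 fell and 6 did not pass the test. Their median log2 fold change was -0.01. Uhrf2, the paralog of Uhrf1, was the exception in size. It had 0.0180, 0.0759 and 0.0410 CPM in P6D4, against 111, 106 and 107 CPM in 70Z/3. All P6D4 libraries lay far below all 70Z/3 libraries, and the ratio of summed counts was 2420.4 in favour of 70Z/3 (95% counting interval 1174 to 6021; edgeR adjusted p = 1.01e-17). Dmap1, a DNMT1-associated protein, and the deacetylase Hdac1 were higher by 0.89 and 0.34 on the log2 scale, and Cdca7l was lower, at -0.28. The replication clamp Pcna and the remodeller Hells, picked here after looking at their values, did not pass, at 368 and 215 CPM in P6D4 and 371 and 217 CPM in 70Z/3.

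Of 7 genes in a list of readers of methylated CpG and their relatives, 2 rose in P6D4, 4 fell and 1 did not pass the test. Their median log2 fold change was -0.32. Mbd3, a subunit of the NuRD complex, was higher by 0.39. The zinc finger readers Zbtb4 and Zbtb33 were lower, at -3.60 and -0.67, Zbtb4 resting on 77 counts in P6D4 and 839 in 70Z/3.

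Of 18 genes of base excision repair and cytosine deamination, 16 were tested, and 7 rose in P6D4, 6 fell and 3 did not pass the test (median log2 fold change 0.08). Neil2, a glycosylase that can assist TDG, had 475 counts in P6D4 and 1 in 70Z/3, a ratio of 425 with a 95% counting interval of 75.9 to 16809. Gadd45b, a stress gene linked to demethylation, averaged 16.8 ± 1.12 CPM in P6D4, with 0.328 ± 0.0289 CPM for 70Z/3 (SD, n = 3). The deaminase Apobec1 and the uracil glycosylase Ung were lower, at -1.51 and -0.85.

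TET enzymes need oxoglutarate, which isocitrate dehydrogenases make. Of 11 genes tested in the list of TET partners and this metabolism, 5 rose in P6D4, 5 fell and 1 did not pass the test (median log2 fold change -0.03). Idh2, the mitochondrial enzyme that uses NADP, had 207, 207 and 203 CPM in P6D4, against 0.149, 0.186 and 0.0222 CPM in 70Z/3. No 70Z/3 library exceeded 9 counts, and the ratio of summed counts was 1698 (95% counting interval 1061 to 2916; edgeR adjusted p = 1.43e-17). D2hgdh, which clears the D form of hydroxyglutarate, was lower, at -1.54. Cxxc5, a CpG-binding protein known to act on Tet2, was lower, at -1.55.

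In the methyl donor cycle, 6 of 14 genes tested rose in P6D4, 6 fell and 2 did not pass the test (median log2 fold change 0.06). Mtrr, which reactivates methionine synthase, and Mthfd1 of folate metabolism were higher by 1.29 and 0.48. Mat2b, a subunit of the enzyme that makes S-adenosylmethionine, and Ahcy, which clears its product, were lower, at -0.83 and -0.70. Of 11 histone enzymes and cofactors that guide DNA methylation, 5 rose, 4 fell and 2 did not pass (median log2 fold change -0.04). Ehmt2 was higher by 0.65 and Nsd1 by 0.47, while Kdm2b, which binds unmethylated CpG islands, and Ezh2 were lower, at -1.28 and -0.52.

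**Figure D4:**
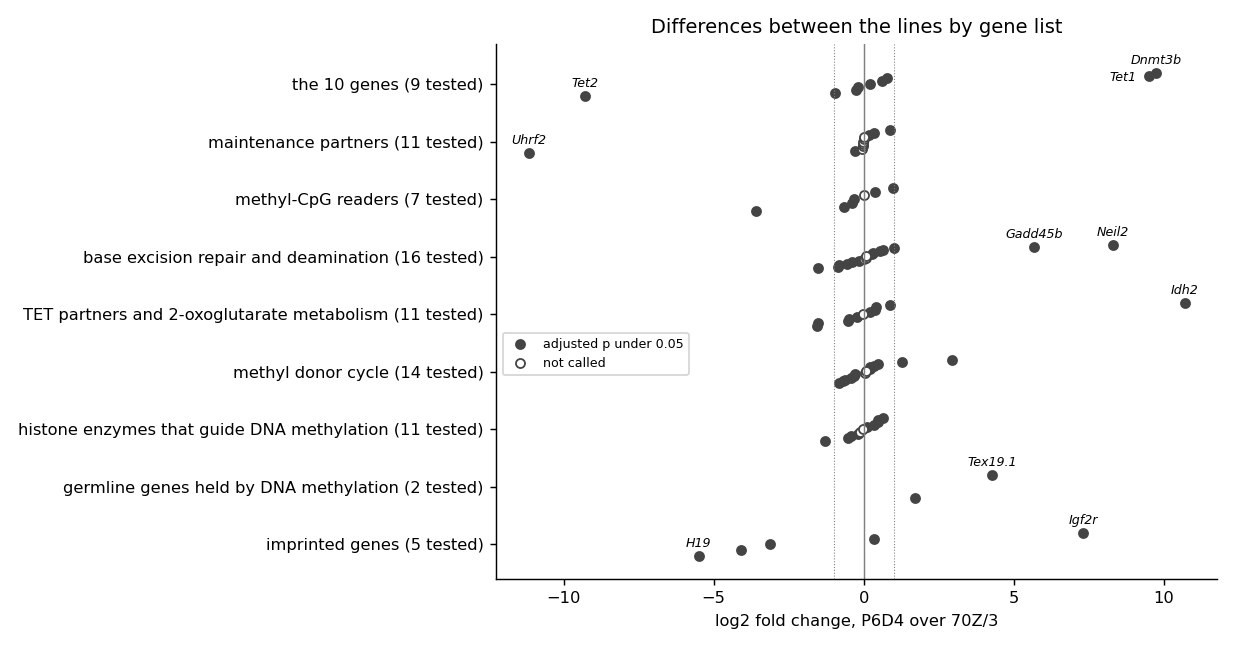
Points show the log2 fold change of P6D4 over 70Z/3 (horizontal axis) of each tested gene, by list, filled where the edgeR adjusted p is under 0.05 and open where not, with dotted lines at a 2-fold difference. Tex19.1 is drawn at its lower bound. Most partners lie near 0, while Uhrf2 lies far left and Idh2 far right, beside Tet2, Tet1 and Dnmt3b in the top row.

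Genes that DNA methylation is known to hold silent outside the germ line were low in both lines. Of 16 such germline genes, 7 had no count in any library and 2 could be tested. Both passed the filter on low counts through P6D4, the line in which they were higher. A gene can pass through either line. Among genes this low, the filter thus favours those that differ, though not in a given direction. Dazl, too low to test and chosen for mention after its values were seen, had 9 counts in P6D4 and 22 in 70Z/3. Tex19.1 had 68, 56 and 71 counts in P6D4 and 0 in each 70Z/3 library, at least 19.5-fold higher against a floor of 3 counts per library. Ddx4, named after its values were seen, had 85 counts in P6D4 and 23 in 70Z/3. Summed over the list, the level was 2.00 to 2.63 CPM in P6D4 and 0.373 to 0.383 CPM in 70Z/3. Of 16 imprinted genes matched, 5 were tested, 2 of them higher in P6D4 and 3 lower. Among the lower ones, Igf2, named after its values were seen, had 4 counts in P6D4 and 34 in 70Z/3. Igf2 and H19 passed the filter on low counts through 70Z/3, the line in which they were higher. The filter thus also favoured a difference for these genes, though not its direction. Igf2r averaged 176 ± 7.65 CPM in P6D4 and 1.11 ± 0.0491 CPM in 70Z/3, and Grb10 averaged 7.40 ± 1.95 CPM in P6D4, with 126 ± 16.2 CPM for 70Z/3 (SD, n = 3). H19 had 4 counts in P6D4 and 178 in 70Z/3, and Impact was higher by 0.34. Trdmt1, a relative of the methyltransferases that acts on transfer RNA, was lower, at -0.97 (edgeR adjusted p = 1.48e-08).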

How the data were processed

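RNA-Seq and Miz1 ChIP-Seq values were used; the input and histone samples are not analysed here. For RNA, the authors deposited a file of read counts by Ensembl gene for each library. Per the submitters' processing notes the tools include HTSeq, TopHat2 2.0.10 and Bowtie2 2.10, beside bedtools and SAMtools, and the builds named are GRCm38 and mm10. The library kit keeps strand, per the labels' protocols. The 5 summary lines per file were left out; reads outside genes were 14.5 to 16% of those aligned uniquely, and non-unique alignments, relative to gene counts, came to 1.10 to 1.14 for P6D4 and 1.41 to 1.44 for 70Z/3. The authors called peaks with MACS at a q-value threshold of 0.01 with 1 tag kept per position, per the file headers. Per peak, the deposited values are a pileup signal, a fold (ratio over local background) and -log10 p and q.

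Counts were tested with edgeR 4.0.16 in R 4.3.3 (filterByExpr, TMM, quasi-likelihood test, cell line as the only term, Benjamini-Hochberg adjusted p under 0.05 over all genes), and against a 2-fold difference with glmTreat. The SE is the log2 fold change over the square root of F and understates counting error at low counts. The code was tested on simulated data. No 2 libraries were identical, and all replicate pairs differed beyond counting noise (chi-square over its degrees of freedom 2.46 to 13.8). Alternatives used DESeq2 1.42.0, limma 3.58.1 (voom), other scalings and filters, and fits with 1 library left out. Starts and promoter sequences come from RefSeq (GRCm38.p6), matched by symbol for 10 of 10 genes. Intervals and floors cover counting error only. The genes, lists and tests were chosen with earlier results of these data known. Named genes are the 10 members, up to 2 called rises and 2 called falls per list whose mean in the higher line was 1 CPM or more, the 3 genes nearest in pattern to the members with the largest rise and fall, and the nearest Miz1 peaks. Markers, overlapping or neighbouring genes and those said to be chosen after their values were seen stand outside it. Some genes that the rule names are not reported here.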

Additional observations from a re-analysis of the deposited data

How the results depend on the processing

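Each of the 9 tested genes kept its direction and its call under all 13 other settings. The log2 fold change ranged over 9.56 to 10.17 for Dnmt3b, 9.32 to 9.90 for Tet1 and -9.88 to -9.06 for Tet2. The smaller differences ranged over -1.0 to -0.94 for Dnmt1, 0.74 to 0.79 for Dnmt3a, 0.60 to 0.65 for Tdg, -0.31 to -0.22 for Mbd4, -0.22 to -0.16 for Tet3 and 0.20 to 0.26 for Uhrf1 (largest adjusted p 0.00159, for Tet3). The log2 ratio of Dnmt3a to Dnmt3b differed by -8.31 in place of -9.14 when a prior count of 2 was added, which pulls ratios with few counts towards 0. Without the filter, 5 germline and 8 imprinted genes were called, in place of 2 and 5, and 1 germline gene was called at a minimum of 1 CPM in 3 libraries. No alternative placed a Miz1 summit or peak at a start of the 10 genes, up to 5 kb. Same-numbered replicates did not deviate together across the lines (correlations -0.06, -0.05 and 0.01), and a replicate block gave 11714 calls in place of 11891. Dnmt3l, with 0 to 3 counts a library, was too low to test, and whether depth accounts for this was not tested.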

Other observations

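Genes lying next to the members were chosen for mention after their values were seen. Beside Dnmt3b, Commd7 had 40.3 CPM in P6D4, with 42.6 CPM for 70Z/3, and Mapre1 had 295 CPM in P6D4, with 229 CPM for 70Z/3. Nol4l, the next gene after Commd7, had 49 CPM in P6D4, with 2.4 CPM for 70Z/3 (log2 fold change 4.35). Efcab8, the next gene after Mapre1, went the other way, with 0.578 CPM in P6D4 and 3.16 CPM for 70Z/3 (log2 fold change -2.44). Beside Tet1, Ccar1 had 215 CPM in P6D4, with 202 CPM for 70Z/3, and Slc25a16 had 51.5 CPM in P6D4, with 33.3 CPM for 70Z/3. The neighbours of Tet2 lay farther off. Ppa2, 85.4 kb away, had 27 CPM in P6D4, with 41.3 CPM for 70Z/3. Arhgef38, at 229 kb on the same side, had no count in any library. On the other side Cxxc4, at 691 kb, and Tacr3, at 1284 kb, had no count in any library either. Only genes listed as protein-coding in RefSeq were taken as neighbours. Dnmt3c, which had no count in any library, is not among them. Of the neighbours taken, the nearest on each side of Dnmt3b and of Tet1 had RNA in both lines, while Tet2 has such a neighbour on 1 side. Near Dnmt3a, Pomc had 292 counts in P6D4 and 0 in 70Z/3, and Efr3b had 35.9 CPM in P6D4, with 0.956 CPM for 70Z/3. Plin3, near Uhrf1, had 104 CPM in P6D4, with 0.635 CPM for 70Z/3, where Uhrf1 itself differed little.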
